A study of Mus musculus with 8 samples.

Results

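The genes described here encode the nuclear subunits of the mitochondrial respiratory chain and ATP synthase. They were chosen by gene symbol (Nduf with a letter A, B, C, S or V and a number, Sdhb to Sdhd, Uqcr genes, Cyc1, Cox4 to Cox8 genes and Atp5 genes), without use of their values. The rule found 84 of the 24346 listed genes, namely 35 of complex I, 3 of complex II, 9 of complex III, 20 of complex IV, 15 of complex V and 2, Atp5s and Atp5sl, that encode no structural subunit. Ndufa4 and its paralogue Ndufa4l2 carry a complex I name and were counted with complex IV, to which the Ndufa4 protein belongs.

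Total RNA was sequenced from primary adipose-derived stem cells (ADSCs) of wild-type BALB/c mice, labelled mesenchymal stem cells, which the study isolated with collagenase from the gonadal fat of 12-week-old males. The 4 libraries of 2D cultures came from mice 2, 3, 4 and 5, and the 4 libraries of 3D cultures, grown in Matrigel, came from mice 1, 4, 5 and 7. Each library is 1 culture of 1 mouse, and only mice 4 and 5 gave both kinds. The matrix was present only in 3D, and the study grew 3D cultures in several media, some of which held conditioned medium with Wnt3a or R-Spondin1. The medium of these libraries is not given in the sources used here, so the effects of matrix, medium and geometry cannot be told apart. Per-library values below follow these orders of mice. All levels are FPKM (fragments scaled to the length of the transcript and the depth of the library), which are per transcript length, and differences are 3D minus 2D on the log2(FPKM + 1) scale, which understates changes of low genes.

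The respiratory chain sits in the inner mitochondrial membrane. Complexes I and II feed electrons from NADH and succinate to ubiquinone, complex III passes them to cytochrome c, and complex IV reduces oxygen. Complexes I, III and IV pump protons, and complex V, the ATP synthase, uses the gradient to make ATP. Most subunits are encoded in the nucleus, several have tissue-specific isoforms, and the remaining subunits are encoded by mitochondrial DNA. Those were not analysed here.

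Sequencing depth, read from the smallest steps that FPKM took in long genes, was 16.35 to 17.6 M fragments in the 2D libraries and 14.45 to 15.5 M in the 3D libraries. A transcript of 1000 nt at 100 FPKM then rests on 1445 to 1760 fragments, so counting error is small for most members. The labelled cell type was checked against marker lists. Of 10 stromal genes, 8 were lower and 1 (Ly6a) higher in 3D, and their summed level was 1667 to 4012 FPKM in 2D and 136 to 2668 FPKM in 3D. Pdgfrb was listed at 0 in every 3D library. Of 8 epithelial genes, 7 were higher in 3D, with a summed level of 32.8 to 783 FPKM in 2D and 1931 to 2396 FPKM in 3D. The 4 mesothelial genes summed to 0.222 to 1506 FPKM in 2D, high only in the libraries of mice 3 and 4, and 4 proliferation genes to 60.0 to 224 FPKM in 2D and 12.7 to 64.4 FPKM in 3D. The 4 macrophage genes summed to 0.970 to 4.33 FPKM in 2D and 7.09 to 38.6 FPKM in 3D, without overlap, with 1 (Cd68) higher, Adgre1 listed at 0 in every 3D library and Ptprc below 0.1 FPKM in every library. The part of these differences in the results below was not tested, and in bulk RNA a different mixture of cells and a different level per cell cannot be told apart.

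The chain was expressed strongly in both cultures. Over the 79 of 84 genes whose mean reached 1 FPKM, the median deposited level was 127, 106, 119 and 109.7 FPKM in the 2D libraries. It was 92.7, 75.6, 75.8 and 87.5 FPKM in the 3D libraries. The cultures did not overlap, and the median was lower in each of the 3D libraries. The members made up 2.38% ± 0.14 (SD, n = 4) of all protein-coding FPKM in 2D and 2.60% ± 0.28 in 3D, with overlapping libraries. The levels of the highly expressed genes as a whole also differed, since the 95th percentile of FPKM was 85.5 to 98.7 in 2D and 64.0 to 66.3 in 3D. Quantile normalization, which the study's methods name, removes that difference.

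**Figure D1:**
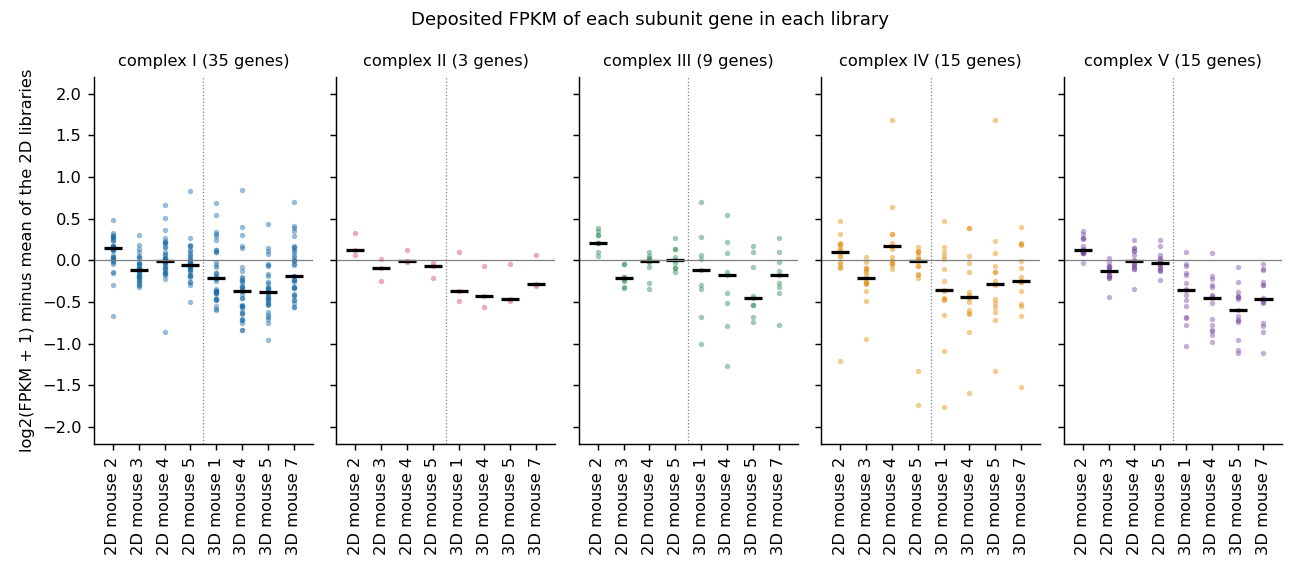
Each point is 1 subunit gene in 1 library, as deposited log2(FPKM + 1) minus the gene's mean over the 2D libraries, by complex, for the 77 subunit genes whose mean reached 1 FPKM. Black bars are medians over the genes. Before normalization the 3D medians of complexes II and V lie below those of every 2D library, while complexes I, III and IV spread more widely. Points of 1 gene, Ndufa4l2, lie outside the axis.

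The direction of the chain as a whole depended on the scaling. After quantile normalization, 24 of the 83 members tested (28.9%) were higher in 3D and 3 (3.6%) lower at an adjusted p below 0.05 (limma, adjusted over 18862 genes), against 21.2% and 20.3% of all genes tested. The median difference of the members was 0.12, and that of all genes 0.00. On the deposited values, 2 members (2.4%) were higher and 35 (42.2%) lower, against 22.7% and 21.6% of all genes, and the median difference was −0.28. Scaling by the median ratio of the libraries, with factors between 0.983 and 1.02, gave the same counts of 2 and 35, against 23.3% and 21.1%. The sign differed between deposited and normalized values in 42 members, and 1 gene, Cox5b, passed the threshold in opposite directions. When mouse was fitted as a block (1 residual degree of freedom), limma called 0 members and 0 of all genes in either scaling, and 11 members (normalized, 13.3%) and 20 (deposited, 24.1%) had an unadjusted p below 0.05, against 27.7% and 28.8% of all genes.

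**Figure D2:**
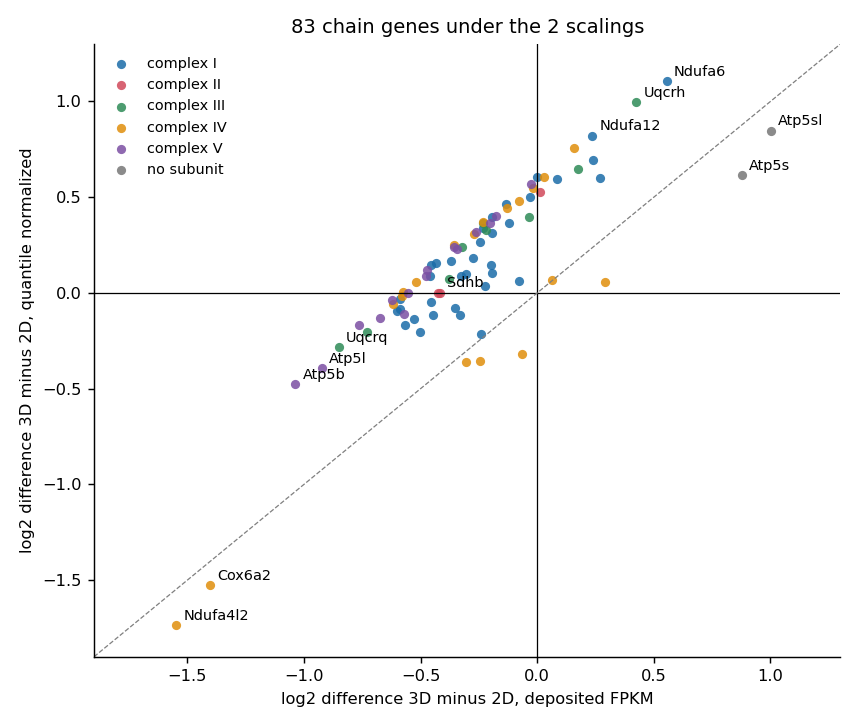
The difference 3D minus 2D of each of the 83 tested genes on deposited values (x axis) and after quantile normalization (y axis), both on the log2 scale, coloured by complex. The dashed line marks equal values. Most subunits lie above that line, left of 0 on the x axis and near or above 0 on the y axis, so their direction changes with the scaling. Atp5b, Atp5l and Cox6a2 lie below 0, and Atp5s and Atp5sl above 0, on both axes.

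The members were set beside all genes of like abundance. Between 30 and 100 FPKM, the median difference was 0.09 for 32 members and −0.07 for 1962 genes after normalization, and −0.34 and −0.43 as deposited. Between 100 and 300 FPKM, it was 0.29 for 28 members and −0.06 for 517 genes after normalization, and −0.28 and −0.66 as deposited. At 300 FPKM or more, it was 0.31 for 11 members and −0.01 for 263 genes after normalization, and −0.27 and −0.42 as deposited. In these 3 classes the members' median therefore lay above that of all genes in both scalings, whichever side of 0 it took. Members are short, with a median transcript length of 731 nt, and among genes of at least 30 FPKM those under 500 nt had a median difference of 0.25 after normalization and −0.13 as deposited. The 10 members of that class had medians of 0.35 and −0.20. Between 500 and 1000 nt, where 37 members lie, the median was 0.23 for the members and −0.01 for all 452 genes after normalization, and −0.27 and −0.47 as deposited. A correction for GC content and length, fitted over 12491 genes with 80 of the members, left 21 members higher and 3 lower, against 27.6% and 28.6% of those genes, with a median difference of 0.12 for the members.

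**Figure D3:**
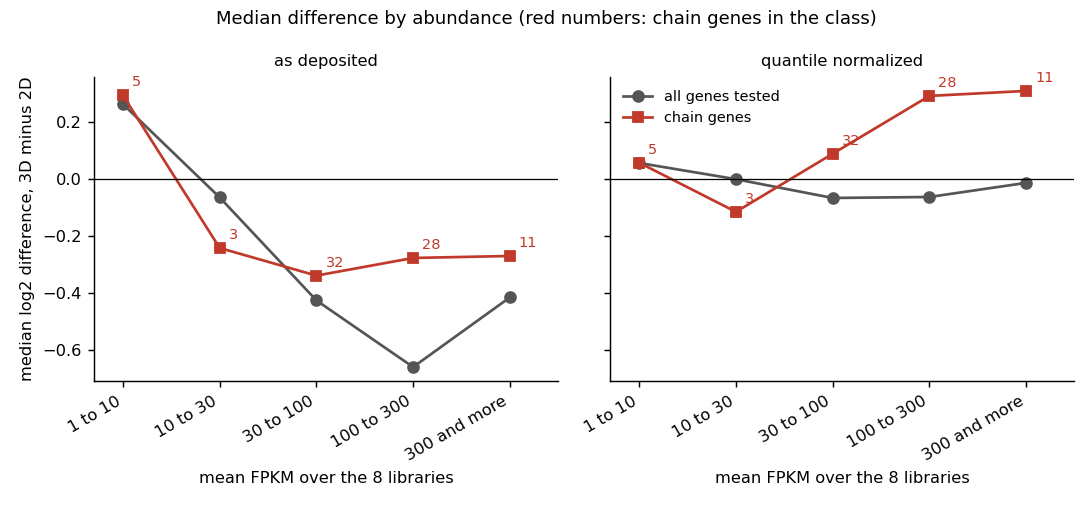
Median log2 difference 3D minus 2D in 5 classes of mean FPKM for all genes tested (grey circles) and for the chain genes (red squares, with their number), as deposited (left) and after quantile normalization (right). From 30 FPKM upwards the chain genes lie above all genes in both panels, below 0 on the left and above 0 on the right.

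The members were also compared with one another. For this, each library was scaled to the same median log2 level of the members, with factors of 1.09 to 1.31 in 2D and 0.775 to 0.950 in 3D, a setting chosen after seeing the data. This moved the median of all genes to 0.16, and the members' median difference was 0.16 as well. A difference of 0 in this scaling is therefore not the middle of the members, of which 59 were fitted above 0 and 24 below. Values and calls relative to the chain are measured from 0, not from that median. By this scaling, 20 members (24.1%) were higher and 4 (4.8%) lower in 3D, against 34.1% and 11.9% of all genes. The complexes differed in their medians, at 0.20 for complex I, 0.05 for complex II, 0.25 for complex III, 0.12 for complex IV and −0.00 for complex V. After quantile normalization the medians were 0.15, 0.00, 0.33, 0.06 and 0.09, and on deposited values −0.24, −0.42, −0.23, −0.25 and −0.48, in the same order. The complex IV medians include isoforms listed near 0 FPKM. Restricted to its 15 genes whose mean reached 1 FPKM, they were 0.25 relative to the chain, 0.25 normalized and −0.23 deposited. The same restriction left the medians of the other complexes unchanged, so the lower place of complex IV in the first 2 scalings rested on those isoforms. Differences between complexes were not tested.

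**Figure D4:**
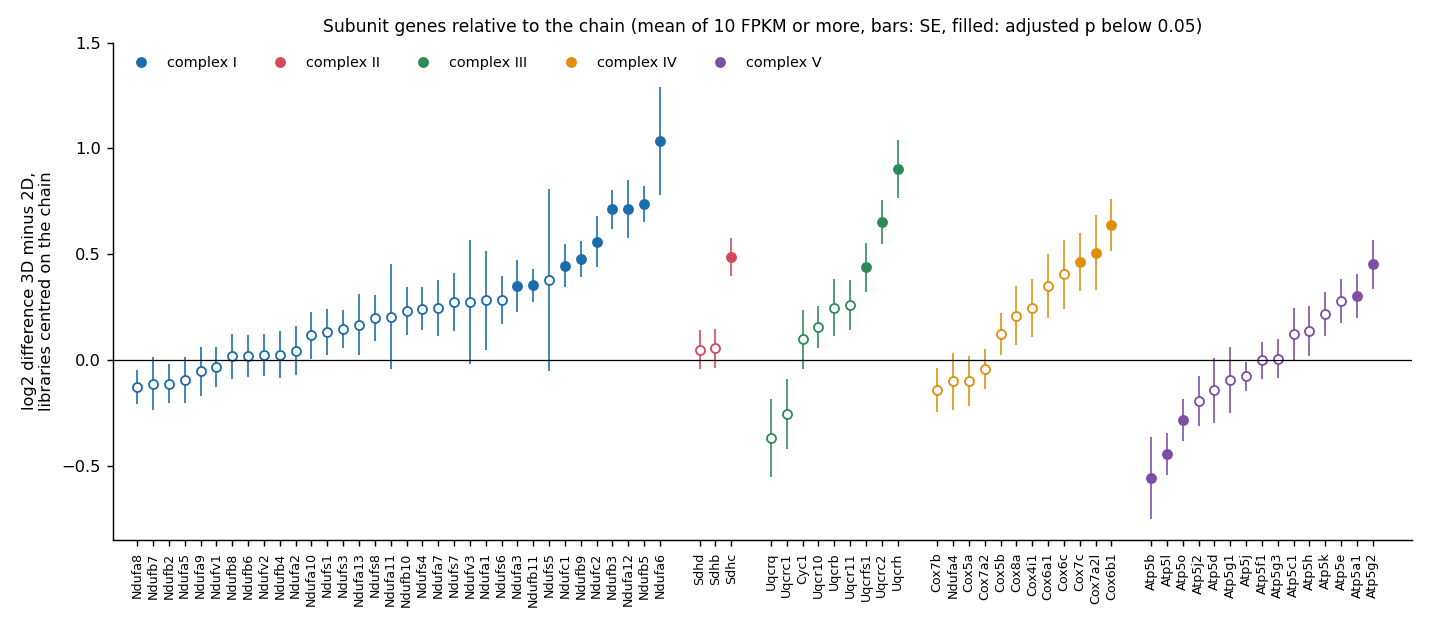
Log2 difference 3D minus 2D with SE for 73 subunit genes whose mean reached 10 FPKM, with libraries centred on the chain, sorted within each complex. Filled points have an adjusted p below 0.05 (limma). The members' median difference in this scaling was 0.16, so the line at 0 is not their middle. Ndufa6, Uqcrh and Cox6b1 are the highest of their complexes and Atp5b, Atp5l and Atp5o the lowest of complex V. On deposited values all complex V genes lie below 0.

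Complex I takes electrons from NADH. Of its 35 genes, 10 were higher and 0 lower in 3D after normalization, while 0 were higher and 15 lower on deposited values. Of all genes tested, 21.2% were higher and 20.3% lower after normalization, and 22.7% and 21.6% as deposited. The same shares apply to the counts of complexes III, IV and V below. Ndufv1, Ndufv2, Ndufs1, Ndufs3, Ndufs7 and Ndufs8 encode core subunits of the electron-carrying arm. None of these 6 passed the threshold after normalization, with differences between −0.20 (Ndufv1) and 0.18 (Ndufs8). On deposited values Ndufv1, Ndufv2, Ndufs1 and Ndufs3 were lower, by −0.50, −0.45, −0.33 and −0.33, and Ndufs7 (−0.20) and Ndufs8 (−0.28) did not pass. Ndufs1 encodes the largest subunit of the complex and measured 33.5 ± 3.5 FPKM in 2D and 26.3 ± 1.5 in 3D (SD, n = 4 each).

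The genes of complex I that rose most after normalization encode accessory subunits. Ndufa6, a LYR-motif protein of the matrix arm, measured 124, 149.7, 194 and 96.7 FPKM in 2D and 161, 245, 185 and 223 FPKM in 3D. The deposited values overlapped through the 2D library of mouse 4. Its difference was 1.10 ± 0.24 (SE) after normalization (limma, adjusted p = 0.0081), 1.03 ± 0.25 relative to the chain (adjusted p = 0.012) and 0.56 ± 0.23 as deposited (adjusted p = 0.085). Ndufa12, an accessory subunit of the peripheral arm, measured 164, 133, 119 and 143 FPKM in 2D and 151, 171, 150.2 and 185 FPKM in 3D. The groups overlapped through the 2D library of mouse 2, and the difference was 0.82 ± 0.09 after normalization (adjusted p = 0.00029) and 0.24 ± 0.12 as deposited (adjusted p = 0.15). Ndufb3, of the membrane arm, measured 59.9, 53.2, 67.2 and 49.4 FPKM in 2D and 70.1, 63.3, 63.6 and 73.3 FPKM in 3D, with differences of 0.69 ± 0.11 normalized (adjusted p = 0.0022) and 0.24 ± 0.11 deposited (adjusted p = 0.11). All 3 were higher in 3D in each of these scalings, passing the threshold in the normalized and the chain-centred values only.

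Complex II oxidizes succinate and has no subunit encoded by mitochondrial DNA. Sdhb, the iron-sulfur subunit, measured 79.5, 53.1, 62.1 and 59.8 FPKM in 2D and 48.5, 42.4, 45.3 and 51.6 FPKM in 3D. Sdhd, a membrane anchor, measured 75.4, 64.5, 68.7 and 67.5 FPKM in 2D and 49.0, 51.0, 48.9 and 55.7 FPKM in 3D. Neither gene overlapped between the cultures as deposited, and both were lower by that scaling, by −0.42 ± 0.13 (limma, adjusted p = 0.031) and −0.43 ± 0.07 (adjusted p = 0.0027). After normalization both differences were 0.00. Sdhc, the other anchor, measured 82.9, 80.1, 86.7 and 68.3 FPKM in 2D and 84.8, 75.2, 76.6 and 83.01 FPKM in 3D. It had a difference of 0.01 ± 0.09 as deposited and was higher after normalization, by 0.53 ± 0.11 (adjusted p = 0.0055), and relative to the chain, by 0.49 ± 0.09 (adjusted p = 0.0028). Sdha, the flavoprotein of the complex, is not covered by the symbol rule and measured 67.0 ± 5.6 FPKM in 2D and 63.5 ± 7.8 in 3D.

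Complex III passes electrons from ubiquinol to cytochrome c. Of its 9 genes, 4 were higher and 0 lower after normalization, and 0 were higher and 2 lower as deposited. Uqcrh, the acidic hinge protein that helps cytochrome c dock, measured 257, 178, 237 and 223 FPKM in 2D and 362, 324, 251 and 268 FPKM in 3D. Only the 2D library of mouse 2 reached into the 3D range, and the difference was 1.00 ± 0.12 normalized (limma, adjusted p = 0.00051), 0.90 ± 0.14 relative to the chain (adjusted p = 0.0012) and 0.42 ± 0.16 deposited (adjusted p = 0.068). Uqcrq, a small subunit of the same complex, measured 480.4, 401, 393 and 389 FPKM in 2D and 206, 171, 248 and 317 FPKM in 3D. The groups did not overlap, and it was lower as deposited, by −0.85 ± 0.19 (adjusted p = 0.0086), but not past the threshold after normalization (−0.28 ± 0.20, adjusted p = 0.31) or relative to the chain (−0.37 ± 0.18, adjusted p = 0.14).

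The ratio of 2 genes within a library does not depend on a scale factor between libraries. Uqcrh over Uqcrq was 0.536, 0.443, 0.604 and 0.573 in 2D and 1.76, 1.89, 1.01 and 0.847 in 3D. The 3D libraries all lay above the 2D libraries and spread over a wide range, with mice 1 and 4 highest. The ratio of the core proteins, Uqcrc2 over Uqcrc1, was 0.527, 0.517, 0.642 and 0.383 in 2D and 0.993, 1.03, 0.882 and 0.944 in 3D, again without overlap. Uqcrc2 was higher after normalization, by 0.65 ± 0.10 (limma, adjusted p = 0.0017), and Uqcrc1 lower as deposited, by −0.73 ± 0.16 (adjusted p = 0.0070), with 145, 100.02, 92.4 and 142 FPKM in 2D and 73.2, 67.8, 72.7 and 68.1 FPKM in 3D. These ratios were picked after their values were seen and carry no test. Uqcrfs1, the Rieske iron-sulfur protein, was higher after normalization, by 0.40 ± 0.08 (adjusted p = 0.0049), and at −0.04 ± 0.09 as deposited. Cyc1, the cytochrome c1 heme subunit, measured 98.7, 63.3, 62.6 and 82.8 FPKM in 2D and 59.4, 57.03, 54.9 and 60.1 FPKM in 3D. Its groups did not overlap, but it passed the threshold in none of these scalings, with 0.07 ± 0.11 normalized and −0.38 ± 0.15 deposited (adjusted p = 0.076). Uqcrc1 and Cyc1 were both lower in the 2D libraries of mice 3 and 4, those with mesothelial transcripts, than in those of mice 2 and 5.

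**Figure D5:**
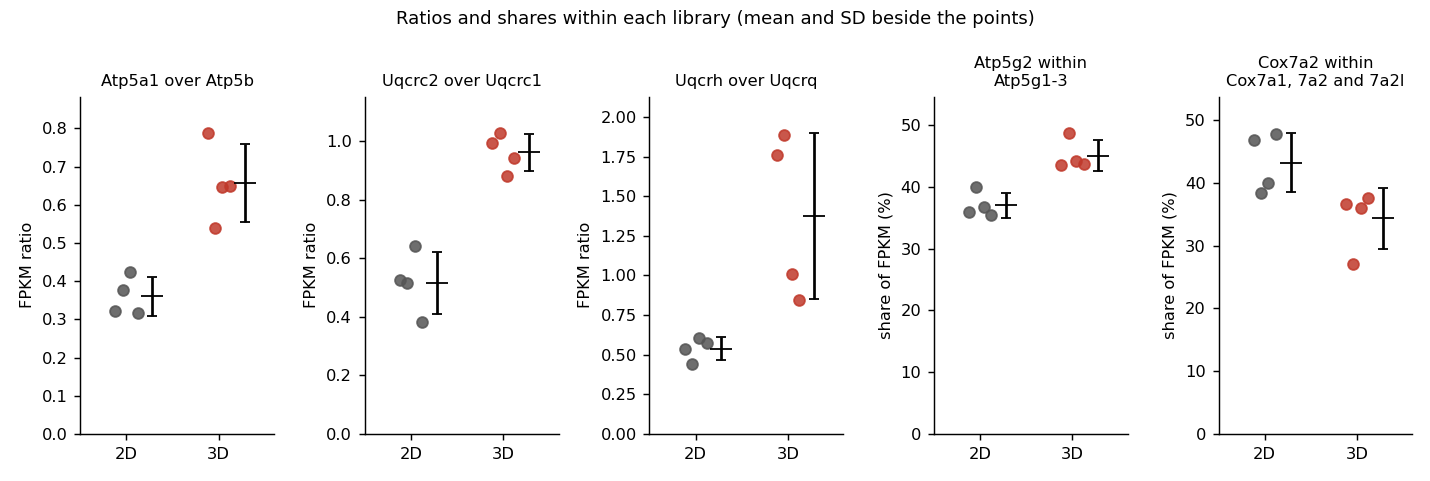
Ratios of FPKM within a library (left 3 panels) and shares of FPKM among paralogues (right 2 panels) in the 4 libraries of each culture, with mean and SD at the side. In each panel the 2D and 3D libraries do not overlap, with the 3D libraries higher in all but the Cox7a2 panel. The shares drawn are among those without overlap, and none of the shares compared passed the correction (exact permutation test, lowest adjusted p = 0.0857). The ratios were picked after their values were seen.

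Complex IV, cytochrome c oxidase, has several pairs of a widely expressed and a tissue-restricted isoform. Of the 19 genes tested, 4 were higher and 1 lower after normalization and 0 higher and 6 lower as deposited, and Cox8c was listed at 0 in every library. Cox6b1, which bridges the dimer on the outer face, measured 319, 231, 317 and 268 FPKM in 2D and 301, 292, 299 and 370.0 FPKM in 3D. The groups overlapped as deposited (0.16 ± 0.14), and the gene was higher by 0.76 ± 0.14 normalized (limma, adjusted p = 0.0039) and by 0.64 ± 0.12 relative to the chain (adjusted p = 0.0037). Cox5b, a zinc-binding subunit of the matrix side, measured 186, 158, 173 and 179.7 FPKM in 2D and 135, 122, 141 and 145 FPKM in 3D. It was lower by −0.36 ± 0.09 as deposited (adjusted p = 0.012) and higher by 0.25 ± 0.08 normalized (adjusted p = 0.031), and relative to the chain it did not pass (0.12 ± 0.10, adjusted p = 0.36). Its normalized call was also lost with the GC and length correction, without the 2D library of mouse 2, 3 or 5 or the 3D library of mouse 5 or 7, and without the 2D libraries of mice 3 and 4 together.

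The isoforms of complex IV kept their order in both cultures, with the widely expressed form far above its partner. Cox4i1, Cox6b1, Cox7b, Cox8a and Ndufa4 each outweighed Cox4i2, Cox6b2, Cox7b2, Cox8b and Ndufa4l2. Cox6a2, the heart and skeletal muscle isoform of Cox6a1, measured 3.73, 1.06, 0.375 and 2.67 FPKM in 2D and 0 in each of the 3D libraries. At these low levels it was lower in each of the 4 scalings (−1.52 ± 0.41 normalized, limma, adjusted p = 0.019). Acta1, a muscle actin gene, measured 126, 5.13, 2.07 and 9.37 FPKM in 2D and was also listed at 0 in 3D. The other 3 of 4 muscle genes checked, Ckm, Myog and Myod1, were listed at 0 in 2D. In 3D the 4 genes summed to 0 to 0.0547 FPKM. The part of muscle-type transcripts in the Cox6a2 difference was not tested. Ndufa4l2, a hypoxia-inducible paralogue of Ndufa4, measured 0.853, 2.06, 33.7 and 0.701 FPKM in 2D and 0.266, 0.420, 0.709 and 0.491 FPKM in 3D. The 2D library of mouse 4 stood far above the others, and the groups overlapped as deposited but not after normalization. The difference passed in none of the 4 scalings (−1.73 ± 0.84 normalized, limma, adjusted p = 0.14). Without that library the normalized difference was smaller and passed (−0.81 ± 0.20, adjusted p = 0.019), and the deposited one did not (−0.54 ± 0.22, adjusted p = 0.097).

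Isoform shares were compared within libraries, with an exact permutation test over the 8 libraries (two-sided) for 12 shares. The smallest p that 4 against 4 libraries allow is 0.0286, and over 12 shares the lowest adjusted p was 0.0857, so no share passed the correction. Among Cox7a1, Cox7a2 and Cox7a2l, the share of Cox7a2 was 46.9%, 38.4%, 40.0% and 47.7% in 2D and 36.7%, 27.1%, 36.0% and 37.6% in 3D. The groups did not overlap (exact permutation p = 0.0286, adjusted p = 0.0857). The share of Cox7a2l, whose product links complexes III and IV in supercomplexes, was 55.2% ± 5.0 in 2D and 64.1% ± 5.0 in 3D (exact permutation p = 0.0571, adjusted p = 0.14). Cox7a1, the muscle form, took 1.54% ± 0.75 in 2D and 1.57% ± 0.48 in 3D (SD, n = 4 each).

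Complex V makes ATP. Of its 15 genes, all had a difference below 0 as deposited and 10 were lower, while after normalization 3 were higher and 2 lower. Relative to the chain 2 were higher and 3 lower, against 34.1% and 11.9% of all genes. Atp5b, the catalytic beta subunit of the F1 head (chr10:128083273-128090391, plus strand, mm10), measured 793, 547, 500 and 753 FPKM in 2D and 310.2, 342, 294 and 293 FPKM in 3D. It had the highest mean of all members in 2D and ranked 8 of 84 in 3D, and its groups did not overlap as deposited. Its 2D values were lower in mice 3 and 4 than in mice 2 and 5. The difference was −1.04 ± 0.18 deposited (limma, adjusted p = 0.0023), −0.48 ± 0.14 normalized (adjusted p = 0.026) and −0.56 ± 0.19 relative to the chain (adjusted p = 0.046). Atp5l, subunit g of the membrane part (chr9:44912557-44920742, minus strand, mm10), measured 544, 426, 549 and 469 FPKM in 2D and 287, 249.7, 234 and 272 FPKM in 3D. Its groups did not overlap in any of the 4 scalings, with −0.92 ± 0.13 deposited (adjusted p = 0.00078), −0.39 ± 0.12 normalized (adjusted p = 0.029) and −0.44 ± 0.10 relative to the chain (adjusted p = 0.0080).

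Atp5b, Atp5l and Cox6a2 were the 3 members lower in each of the 4 scalings. The normalized call of Atp5b was lost without the 2D library of mouse 2 or 5 or the 3D library of mouse 1, 5 or 7, and that of Atp5l without the 2D library of mouse 2 or 4 or the 3D library of mouse 4 or 5. The call of Atp5l was also lost without the 2D libraries of mice 3 and 4 together (adjusted p = 0.094), and both with genes under 300 nt left out before normalization. Cox6a2 kept its call in each of the left-out settings, but only just without the 2D library of mouse 5 (limma, adjusted p = 0.0499). None of the 3 passed with the mouse as a block or in mice 4 and 5 alone (Cox6a2, limma, adjusted p = 0.32 and 0.30). Atp5s and Atp5sl were the 2 members higher in each of the 4 scalings. Atp5sl, now known as an assembly factor of the complex I membrane arm, measured 6.16, 4.16, 4.59 and 4.15 FPKM in 2D and 10.5, 11.5, 9.65 and 10.2 FPKM in 3D, without overlap and with a difference of 0.85 ± 0.15 normalized (limma, adjusted p = 0.0027) and 1.00 ± 0.14 deposited. Atp5s measured 2.73 ± 0.72 FPKM in 2D and 5.82 ± 0.93 FPKM in 3D (SD, n = 4 each). Its normalized call was lost without the 2D library of mouse 2, 3 or 5 or the 3D library of mouse 4, 5 or 7.

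The 5 genes of the F1 head and central stalk (Atp5a1, Atp5b, Atp5c1, Atp5d and Atp5e) all had differences below 0 as deposited and differed in their calls after normalization. Differences between these genes were not tested. Atp5a1, the alpha subunit that alternates with beta in the head, measured 256, 206, 212 and 239 FPKM in 2D and 245, 185, 190.0 and 191 FPKM in 3D. It was higher by 0.40 ± 0.10 normalized (limma, adjusted p = 0.015) and by 0.30 ± 0.10 relative to the chain (adjusted p = 0.045), and at −0.18 ± 0.12 as deposited (adjusted p = 0.28). Atp5a1 over Atp5b was 0.323, 0.377, 0.425 and 0.317 in 2D and 0.789, 0.540, 0.646 and 0.650 in 3D, without overlap and picked after its values were seen. Of the central stalk, Atp5c1 (gamma) was at 0.24 ± 0.09 normalized (adjusted p = 0.062) and lower by −0.36 ± 0.09 deposited (adjusted p = 0.015). Atp5d (delta) was at −0.04 ± 0.10 normalized and lower by −0.62 ± 0.11 deposited, and Atp5e (epsilon) was higher by 0.36 ± 0.11 normalized (adjusted p = 0.031) and at −0.20 ± 0.12 deposited. The call of Atp5e was lost with the GC and length correction and without the 2D library of mouse 2, 3 or 5 or the 3D library of mouse 1, 4 or 7. Atp5o, the stalk protein that confers oligomycin sensitivity, was lower as deposited (−0.76 ± 0.11, adjusted p = 0.00082) and relative to the chain (−0.28 ± 0.10, adjusted p = 0.048), and at −0.17 ± 0.07 normalized (adjusted p = 0.095).

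The c subunit of the membrane rotor is encoded by 3 genes, Atp5g1, Atp5g2 and Atp5g3, whose mature proteins are the same. The share of Atp5g2 in their summed FPKM was 35.8%, 39.9%, 36.7% and 35.5% in 2D and 43.5%, 48.7%, 44.1% and 43.7% in 3D. The groups did not overlap (exact permutation p = 0.0286, adjusted p = 0.0857). The share of Atp5g3 was 42.0%, 44.8%, 45.4% and 42.6% in 2D and 40.4%, 38.0%, 40.0% and 37.4% in 3D, also without overlap (exact permutation p = 0.0286, adjusted p = 0.0857), and that of Atp5g1 was 19.3% ± 3.3 and 16.0% ± 2.3. In FPKM, Atp5g2 measured 166 ± 8.9 in 2D and 163 ± 8.9 in 3D, Atp5g3 196 ± 12.4 and 141 ± 4.4, and Atp5g1 87.5 ± 20.4 and 57.9 ± 9.0 (SD, n = 4 each). Atp5g2 was higher after normalization (0.57 ± 0.07, limma, adjusted p = 0.00073) and at −0.03 ± 0.08 as deposited. Thus the order of the 3 genes was Atp5g3, Atp5g2, Atp5g1 in the 2D means and Atp5g2, Atp5g3, Atp5g1 in the 3D means.

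Because the 3 c-subunit genes share a product and differ in their control regions, the 80 bases before their starts are shown, with those of Uqcrh, the complex III gene that rose most after normalization. All are on the minus strand and written in the direction of the gene (RefSeq, GRCm38.p6), at chr11:96075632-96075711 for Atp5g1, chr15:102671048-102671127 for Atp5g2, chr2:73911327-73911406 for Atp5g3 and chr4:116075071-116075150 for Uqcrh. Capitals mark matches to motifs of regulators of mitochondrial genes, NRF1 (CGCATGCG, the same on both strands) in Atp5g2, ESRRA (TCAAGGTCA, here its complement) in Atp5g3 and GABPA (CCGGAAGT, here its complement) in Uqcrh, and Atp5g1 held none of them in this window.
Atp5g1: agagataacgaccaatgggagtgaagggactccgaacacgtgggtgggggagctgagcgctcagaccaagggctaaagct
Atp5g2: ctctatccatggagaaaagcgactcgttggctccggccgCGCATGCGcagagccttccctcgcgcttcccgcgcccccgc
Atp5g3: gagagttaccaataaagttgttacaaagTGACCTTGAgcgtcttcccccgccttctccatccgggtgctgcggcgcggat
Uqcrh: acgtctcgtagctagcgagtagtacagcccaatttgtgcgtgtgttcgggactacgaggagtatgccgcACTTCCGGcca
Promoter windows of 250 bases before to 50 after the start were matched for 66 of the 84 members. On either strand, NRF1 letters were in 9 of the 72 windows of these members (12.5%), against 1.87% of all 32851 windows, GABPA letters in 5 (6.94%, against 3.89%) and ESRRA letters in 2 (2.78%, against 0.423%). A further motif, YY1 (AAGATGGCG), was in 9 (12.5%, against 1.40%), which belong to 8 members. These motifs did not overlap each other in letters, and a match describes the sequence, not a site in use.

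Related genes of mitochondrial respiration and biogenesis were counted by list. Over 190 related genes tested, 25 were higher and 49 lower after normalization, against 21.2% and 20.3% of all genes tested. As deposited, 17 were higher and 75 lower, against 22.7% and 21.6%. The same shares of all genes apply to each list below. Of 5 further subunits or partners outside the symbol rule (Sdha, Ndufab1, Usmg5, Atpif1 and 2010107E04Rik), 4 were higher and 0 lower after normalization, and 0 and 1 (Usmg5) as deposited. Usmg5, a small ATP synthase subunit, measured 876, 784, 986 and 698 FPKM in 2D and 423, 338, 370 and 450 FPKM in 3D, without overlap and with −1.07 deposited (limma, adjusted p = 0.0013). It was also lower relative to the chain (−0.59, adjusted p = 0.0098), and after normalization its groups overlapped and it did not pass (−0.54, adjusted p = 0.069). Assembly factors were higher or lower in 1 and 5 of 13 for complex I, 1 and 1 of 4 for complex II, 0 and 1 of 6 for complex III, 1 and 3 of 20 for complex IV and 0 and 1 of 3 for complex V after normalization. As deposited these counts were 1 and 3, 1 and 1, 1 and 1, 2 and 4, and 1 and 1. Tricarboxylic acid cycle genes were 5 and 4 of 14 normalized and 1 and 7 deposited, mitochondrial ribosomal proteins 7 and 23 of 77 and 4 and 36, import translocases 2 and 5 of 24 and 1 and 10, and carriers with cytochrome c 1 and 2 of 11 and 1 and 8.

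The related genes with the largest changes held their direction in the normalized, deposited and chain-centred values. Tmem70, needed for the assembly of ATP synthase, measured 61.9, 43.8, 34.1 and 44.2 FPKM in 2D and 9.73, 13.9, 15.3 and 16.0 FPKM in 3D. It was lower by −1.51 normalized (limma, adjusted p = 0.00082) and by −1.67 deposited. Slc25a4, the ADP/ATP carrier typical of muscle, fell from 443 ± 36.5 to 139 ± 10.03 FPKM (−1.08 normalized, adjusted p = 0.00013), and Cycs, cytochrome c itself, from 40.4 ± 15.3 to 15.9 ± 2.0 FPKM (−1.05 normalized, adjusted p = 0.0077). Ucp2, an uncoupling protein family member, measured 1.39, 6.02, 25.6 and 0.637 FPKM in 2D and 269, 154, 198 and 179 FPKM in 3D, a rise of 5.43 normalized (adjusted p = 0.00089). Coa3, an assembly factor of complex IV, rose from 56.9 ± 9.6 to 106 ± 18.9 FPKM (1.40 normalized, adjusted p = 0.00021).

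Of 13 regulators of mitochondrial biogenesis, 3 were higher and 4 lower after normalization, against 21.2% and 20.3% of all genes tested. As deposited, 4 were higher and 3 lower, against 22.7% and 21.6%. Ppargc1a, the coactivator PGC-1alpha, measured 0.0181, 0.115, 0.0434 and 0 FPKM in 2D and 2.13, 1.06, 2.02 and 2.27 FPKM in 3D, a low level without overlap (1.29 normalized, limma, adjusted p = 0.00041). Its homologue Ppargc1b measured 0.209 ± 0.135 FPKM in 2D and 1.22 ± 0.42 FPKM in 3D (0.64, adjusted p = 0.018). Esrra, a nuclear receptor that works with both, rose from 22.0 ± 1.4 to 29.4 ± 4.1 FPKM (0.59, adjusted p = 0.0050). Gabpa, a subunit of the GABP factor whose motif letters lie before Uqcrh, fell from 17.0 ± 2.3 to 8.45 ± 0.24 FPKM (−0.97, adjusted p = 0.00031). Tfb2m, the mitochondrial transcription factor, fell from 11.1 ± 1.5 to 6.97 ± 0.96 FPKM (−0.72, adjusted p = 0.0041), and Pprc1, another coactivator of the family, from 15.4 ± 3.4 to 9.04 ± 2.37 FPKM (−0.76, adjusted p = 0.030). Relative to the chain, Tfb2m (−0.17) and Pprc1 (−0.28) did not pass. Nrf1 was lower after normalization (−0.46, adjusted p = 0.031), did not pass as deposited (−0.37, adjusted p = 0.064) and stood at 0.07 relative to the chain. The calls of Nrf1 and Pprc1 were lost without the 2D library of mouse 2, 3 or 5 or the 3D library of mouse 7 (Nrf1 also without that of mouse 1 or 5), and that of Ppargc1b without the 2D library of mouse 4 or the 3D library of mouse 5. Gabpb1, Esrrg, Tfam, Tfb1m, Polrmt and Peo1 did not pass after normalization, with differences between −0.18 (Peo1) and 0.39.

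Within the mice that gave both cultures, the deposited level of 69 of 83 members (83.1%) was lower in 3D in mouse 4 and of 63 (75.9%) in mouse 5, against 45.6% and 43.3% of all genes. Among genes with a mean of 30 FPKM or more, the shares were 87.3% and 81.7% of 71 members and 65.8% and 70.6% of all 2742 genes. Without the 2D libraries of mice 3 and 4, a setting chosen after seeing the data, 24 members were higher and 6 lower after normalization, against 18.6% and 22.4% of all genes, and 3 and 37 as deposited, against 21.6% and 24%.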

How the data were processed

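Gene-level FPKM values of 8 libraries were deposited, 1 table per library and without read counts. Per the study's methods and labels, the authors depleted ribosomal RNA, made directional libraries, trimmed the paired-end reads, mapped them with TopHat to mm10 and computed FPKM with Cufflinks. The annotation is not given in the sources used here. The authors' quantile normalization is not part of the deposited FPKM values and was applied here with limma 3.58.1 in R 4.3.3, over the 18862 of 24346 genes above 0 in at least 1 library. Differences between 3D and 2D were fitted to log2(FPKM + 1) with limma (empirical Bayes, intensity trend, no covariates, Benjamini-Hochberg over 18862 genes). The labels do not say whether libraries of a culture type share a batch. Isoform shares were compared with exact permutation tests (scipy 1.17.1) on deposited values.

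Lengths and positions came from GENCODE M21, which all 84 members matched. Depth was estimated from 3366 genes of at least 3000 nt, of whose low values 75.6% to 83.1% per library lay within 0.15 of a whole multiple of 1 step. It covers counting error only. The mouse number pairs mice 4 and 5, because the labels name the same mouse for both cultures. Over 12583 genes, the deviations of paired libraries correlated at −0.05 (mouse 4) and −0.11 (mouse 5).

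Members, lists and tests were chosen with earlier results of these data known. Named genes were all of complex II, Cyc1, the core genes of complex I, the F1 subunits, all isoform families, up to 3 rises and 3 falls per complex among called genes without overlap, the 3 largest changes each way among related genes, and all biogenesis regulators. Of these, 1 gene is not reported here. Other genes, such as Uqcrq, Uqcrc1, Atp5o and the subunits outside the rule, were named after their values were seen. Alternatives were the deposited values, median-ratio scaling, genes under 300 nt left out, a GC and length correction, mouse fitted as a block or a random effect, mice 4 and 5 alone, each library left out, no intensity trend, a pseudocount of 0.1 and a minimum mean of 1 FPKM. Centring on the chain, alternatives on deposited values beyond the plain fit, and leaving out the 2D libraries of mice 3 and 4 were added after seeing the data. The fit was tested on simulated data. Mitochondrially encoded subunits were not analysed here.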

Additional observations from a re-analysis of the deposited data

Results flagged for a closer look

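In 9 of 163 groups of 4 libraries (5.5%), 1 library of a member stood apart from the other 3 by more than Dixon's 95% critical share of the group's range, which chance gives in about 1 in 20 groups. Among the 2D libraries, Ndufa4l2 measured 33.7 FPKM in mouse 4, Cox4i1 measured 511.0 FPKM in mouse 4, and in mouse 2 Ndufb9 measured 181 FPKM and Uqcrq 480.4 FPKM. Among the 3D libraries, Atp5a1 measured 245 FPKM in mouse 1 and Atp5d 118 FPKM in mouse 4. In the 3D library of mouse 7, Cox6b1 measured 370.0 FPKM, Ndufa13 61.8 FPKM and Cox7b2 0.189 FPKM, the last against 0 in the other 3D libraries.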

How the results depend on the processing

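As deposited, complexes I to V had 0 members higher and 15, 2, 2, 6 and 10 lower, against 22.7% and 21.6% of all genes. Their median differences were −0.24, −0.42, −0.23, −0.25 and −0.48. Median-ratio scaling gave 0 higher and the same counts lower in each complex, with medians of −0.22, −0.39, −0.21, −0.24 and −0.45. By that scaling 2 members were higher and 35 lower, against 23.3% and 21.1% of all genes. Related genes lower numbered 75 as deposited, against 21.6% of all genes. Centring on the chain gave 60 related genes higher and 15 lower, against 34.1% and 11.9% of all genes. Signs turned in 11 reported members named by rule and called in the normalized or the deposited values, Atp5a1 (−0.18 deposited, −0.15 median-ratio), Atp5c1 (−0.36, −0.33), Atp5e (−0.20, −0.18), Atp5g2 (−0.027, −0.0018), Atp5g3 (−0.47, −0.45), Cox5b (−0.36, −0.33), Cox7a2 (−0.52, −0.49), Ndufs3 (−0.33, −0.30), Sdhb (−0.42, −0.39), Sdhd (−0.43, −0.40) and Uqcrfs1 (−0.036, −0.010), and Nrf1 stood at 0.067 relative to the chain. Some named members called in neither also turned, such as Cyc1 (0.07 normalized, −0.38 deposited). Each named gene kept its direction and its side of the threshold without the intensity trend, with a pseudocount of 0.1 and with the mouse as a random effect. The cause of the changes was not tested.

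With the mouse as a replicate block, 0 members, 0 of each complex and 0 related genes were called either way, normalized or deposited. The normalized medians were −0.0025 for complex I and 0.22 for complex III. In this fit 36 members were below 0 normalized and 69 as deposited. Within paired mice, the share of Atp5g2 differed by 10.3 percentage points and that of Cox4i2 by −0.0034. Mice 4 and 5 alone gave 2 members higher (complex I 2, other complexes 0) and 1 lower (complex I 1, complexes IV and V 0), medians of −0.0048 (I) and 0.22 (III), and 5 related genes higher and 7 lower. With genes under 300 nt left out, 7 members of complex IV and 5 of complex V were higher, and 1 member (0 of complex V) lower. For this setting and for mice 4 and 5 alone, shares of all genes called are not given here. A change in members and a change in all calls therefore cannot be told apart in these counts. The GC and length correction gave complex III a median of 0.20. Without the 2D libraries of mice 3 and 4, 5 members of complex V were higher, and 6 members were lower, 1 each of complexes I, III and V and 3 of complex IV. Of all genes, 18.6% were higher and 22.4% lower in that setting.

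Leaving out 1 library at a time, complex IV members higher ranged from 2 to 6, members lower from 1 to 3, those of complex I from 0 to 1, of complex IV from 1 to 2 and of complex V from 0 to 2. The lowest count of 1 member lower came without the 2D library of mouse 2 or the 3D library of mouse 5. Related genes lower ranged from 31 to 47, members higher as deposited from 2 to 4, and the median of complex III from 0.24 to 0.40. Shares of all genes called are not given for these settings either, so the counts have no comparison with all genes.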
